A study of Bos taurus and Bos indicus with 12 samples.

Results

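The heat shock protein and chaperone genes HSP90AA1, HSP90AB1, HSPA8, HSPA5, HSPH1, DNAJB1, HSPD1 and HSPB1 were followed in the skin of cattle with and without cattle ticks. The 8 genes were chosen by name, and every probe set whose platform annotation gives 1 of these symbols was taken. They are 8 of the 9155 genes that the annotation names, and the rule gave 16 of the 24016 tested probe sets, with 1 probe set each for HSP90AB1, HSPA8 and HSPD1, 2 each for HSP90AA1, DNAJB1 and HSPB1, 3 for HSPA5 and 4 for HSPH1. Probe sets of 1 gene are numbered from the highest to the lowest mean signal, and the plot of differences gives their platform identifiers.

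Molecular chaperones bind unfolded or partly folded proteins, keep them from aggregating and help them reach their native shape. The HSP70 proteins bind short hydrophobic stretches in a cycle driven by ATP, in which J-domain proteins start hydrolysis and exchange factors release the nucleotide, and HSP90 takes over part of the clients at a later step of folding. Many of the genes are induced by heat, oxidants or inflammation through heat shock factor HSF1, while HSPA5 answers to unfolded proteins in the endoplasmic reticulum. In skin, the small heat shock protein HSPB1 is known from the differentiating epidermis.

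The infested Holstein-Friesian and infested Brahman animals had undergone successive heavy infestations with the cattle tick Rhipicephalus microplus, and their skin was biopsied where larvae were attached. Naive Holstein-Friesian and naive Brahman animals had never met the tick. Each of these 4 groups held 3 female animals with 1 array each. All infested animals were 6 months old, naive Holstein-Friesian animals 12 months and naive Brahman animals 18 months, so that age and infestation cannot be told apart within a breed. Brahman cattle are indicine and known for tick resistance, and Holstein-Friesian cattle are taurine and kept for milk. The biopsies were full-thickness punches of 8 mm diameter, with all cell types of the skin, so fewer cells of a type and less RNA per cell cannot be told apart. All values below are the deposited RMA expression values on the log2 scale, and all differences are log2 differences between means of 3 arrays with their standard error. A probe set or gene was called when its limma p-value, adjusted over all 24016 probe sets, was at most 0.05.

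The arrays differed in RNA integrity. An index of it, the mean 5' minus 3' signal of 5 control transcripts, lay from -4.91 to -2.07 log2 on the infested Brahman arrays and from -1.04 to -0.85 on the naive Brahman arrays. It lay from -2.73 to -0.75 on the infested Holstein-Friesian arrays and from -1.39 to -0.82 on the naive Holstein-Friesian arrays. The lowest values were those of infested Brahman 1 at -4.91 and infested Holstein-Friesian 1 at -2.73. In Brahman skin the index ranges of infested and naive animals did not overlap. Integrity and infestation therefore cannot be told apart there, and a fit with the index as a covariate cannot separate them. Of 6 keratinocyte markers, the keratin genes KRT5, KRT14 and KRT10 read between 13.75 and 14.67 on all 12 arrays. The other 3 were lowest on infested Brahman 1, with 5.43 for SFN (11.28 to 12.03 on naive Brahman arrays), 5.97 for PKP1 (8.57 to 9.75) and 9.53 for KRT15 (10.46 to 11.05).

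In infested Brahman skin, against naive Brahman skin, most chaperone genes had lower signal. At least 1 probe set of HSP90AA1, HSPA8, HSPA5, HSPH1, HSPD1, DNAJB1 and HSPB1 fell, and 1 probe set of HSPB1 rose. In all, 9 of the 16 probe sets fell and 1 rose, against 10.2% and 9.54% of all tested probe sets, and 19.8% in either direction. The median difference of the 16 was -0.88, beside 0.04 over all probe sets. For 8 probe sets every infested Brahman array was lower than every naive Brahman array, and for 1 every one was higher, while 38.5% of all probe sets separated the groups in this way (19.3% lower and 19.3% higher). Fewer calls were made when 1 naive Brahman array was left out. Of the 16, 3 were called without naive Brahman 2 (beside 11.3% of all probe sets) or without naive Brahman 3 (9.23%). Without naive Brahman 1 the count was 6 (13.1%). With the integrity index as a covariate no chaperone probe set was called by limma, and 7.53% of all probe sets were. Without the 2 arrays of lowest index, 10 of the 16 were called, 9 of them among the original calls, beside 26% of all probe sets. The infested Brahman arrays left, with an index of -2.56 and -2.07, still lay below every naive Brahman array in index.

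In infested Holstein-Friesian skin, against naive Holstein-Friesian skin, 1 chaperone probe set was called. It belongs to HSPH1 and was lower in infested animals. This was 1 of 16, against 5.02% of all tested probe sets in either direction, 2.34% lower and 2.68% higher. The median difference of the 16 was -0.34, beside -0.03 over all probe sets, and 4 of the 16 had an unadjusted p under 0.05. The arrays did not overlap for 4 probe sets that were lower (HSP90AA1, HSP90AB1, HSPH1 and HSPD1) and 2 that were higher (HSPB1 and DNAJB1) in infested animals, where 30.3% of all probe sets had no overlap (16% lower and 14.4% higher). No chaperone probe set was called without naive Holstein-Friesian 1 (beside 0.654% of all probe sets), naive Holstein-Friesian 2 (1.34%) or infested Holstein-Friesian 3 (1.15%).

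**Figure D1:**
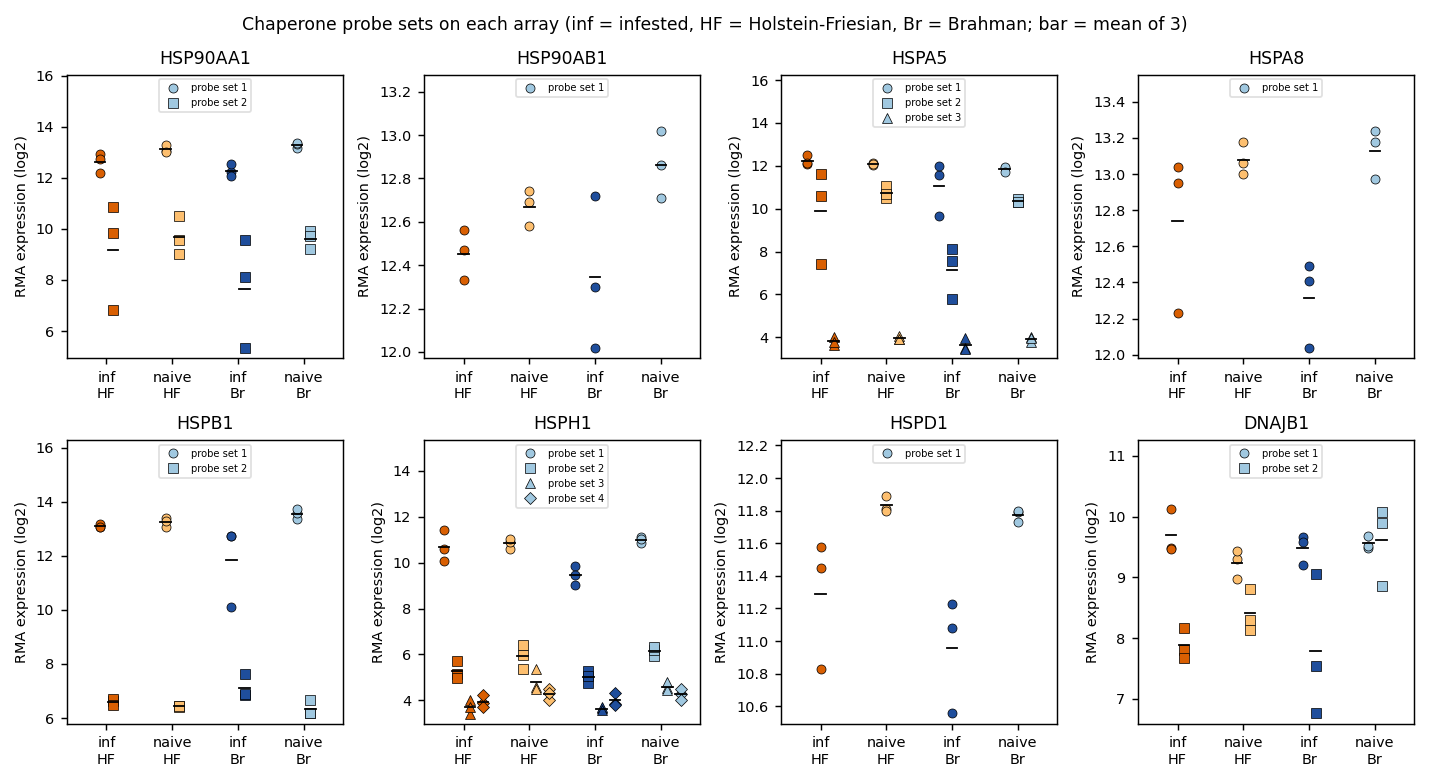
RMA expression (log2) of the 16 probe sets of the 8 chaperone genes on each of the 12 arrays, 1 panel per gene and 1 symbol per probe set, with the mean of 3 arrays as a bar. In infested Brahman skin HSPA8 lay between 12.04 and 12.49 and HSPH1 probe set 1 between 9.02 and 9.86, below all naive Brahman arrays. Levels of different probe sets on 1 panel are not comparable with each other.

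**Figure D2:**
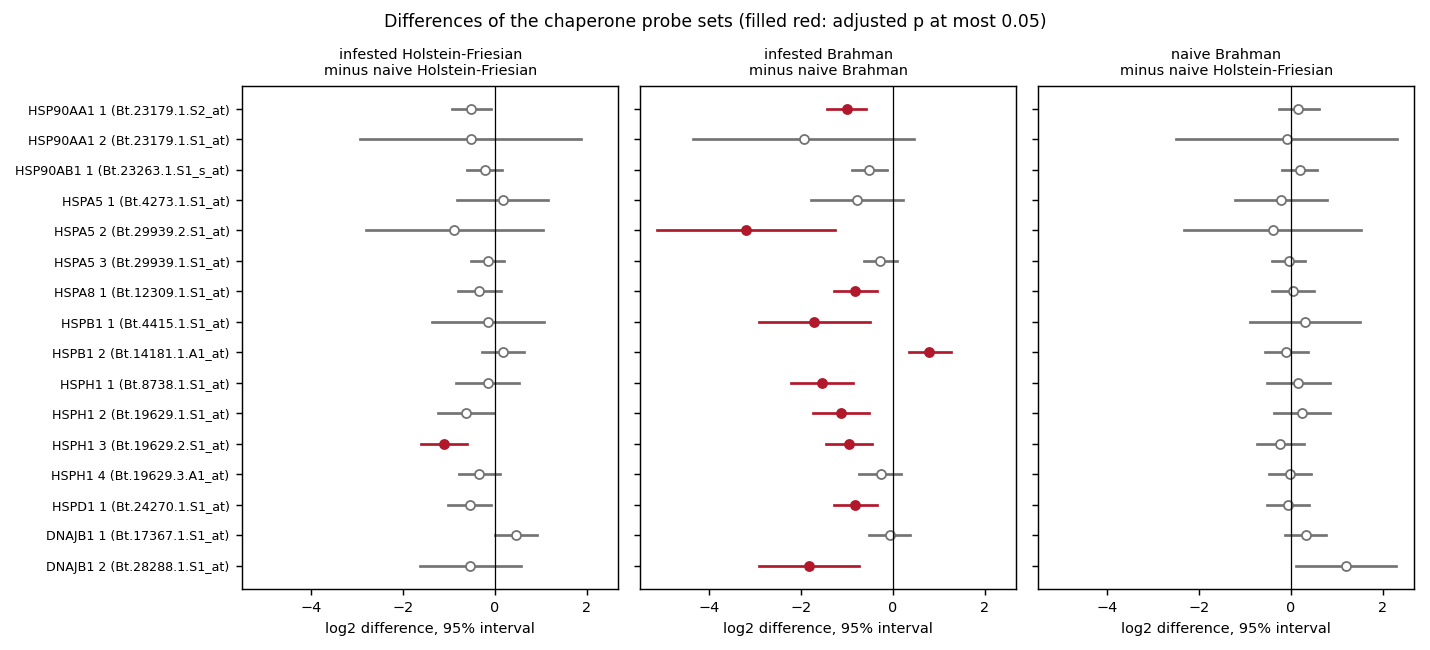
Log2 difference of each chaperone probe set with its 95% interval from limma, for infested minus naive Holstein-Friesian, infested minus naive Brahman and naive Brahman minus naive Holstein-Friesian animals. Filled red points mark an adjusted p of at most 0.05, which 1, 10 and 0 probe sets reached.

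HSP90AA1 encodes the stress-inducible cytosolic HSP90, which matures kinases, steroid receptors and other clients. Its probe set 1 read 12.22, 12.06 and 12.55 in infested Brahman arrays 1, 2 and 3, against 13.17, 13.33 and 13.35 in naive Brahman arrays. All infested Brahman values lay below all naive Brahman values. It fell by 1.01 ± 0.20 on the log2 scale, which is 2.01-fold (adjusted p = 0.00676), and it passed whichever array was left out. The difference was -0.64 (adjusted p = 0.142) with the index as a covariate.

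In Holstein-Friesian skin the same HSP90AA1 probe set read 12.19, 12.93 and 12.72 in infested and 13.06, 13.27 and 13.03 in naive animals. The groups did not overlap, but the difference of -0.51 ± 0.20 did not pass (adjusted p = 0.161). HSP90AA1 probe set 2 varied widely among infested animals. It read 5.33, 8.10 and 9.56 in infested Brahman arrays, against 9.91, 9.21 and 9.71 in naive Brahman arrays, and the difference of -1.94 ± 1.09 did not pass (adjusted p = 0.231). Its values in infested Holstein-Friesian animals were 6.82, 10.85 and 9.85, against 9.58, 10.52 and 9.00 in naive ones. The 2 lowest values of this HSP90AA1 probe set were those of the 2 arrays with the lowest integrity index. With the index as a covariate its Brahman difference was 1.61 (adjusted p = 0.104), of the opposite sign.

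HSP90AB1, the constitutive cytosolic HSP90, read 12.02, 12.30 and 12.72 in infested Brahman and 12.71, 12.86 and 13.02 in naive Brahman arrays. The groups overlapped by the highest infested array alone. The difference of -0.52 ± 0.17 missed the threshold (adjusted p = 0.059). In Holstein-Friesian skin HSP90AB1 read 12.33, 12.56 and 12.47 in infested and 12.58, 12.74 and 12.69 in naive animals, a difference of -0.22 ± 0.17 that did not pass (adjusted p = 0.507), although the groups did not overlap. The HSP90AB1 probe set is of the _s_at type, whose probes can match several transcripts. Whether it also reads a related gene was not checked.

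HSPA8 is the constitutive cytosolic HSP70, which folds new proteins, uncoats clathrin vesicles and serves chaperone-mediated autophagy. It read 12.49, 12.04 and 12.41 in infested Brahman arrays, against 12.97, 13.18 and 13.24 in naive Brahman arrays. Every infested Brahman array lay below every naive one. HSPA8 fell by 0.82 ± 0.21, or 1.76-fold (adjusted p = 0.0221). The call was lost without naive Brahman 2 (-0.79, adjusted p = 0.0682), naive Brahman 3 (-0.76, adjusted p = 0.0796) or infested Brahman 2 (-0.68, adjusted p = 0.0669), and with the index as a covariate (-0.63, adjusted p = 0.242). Infested Holstein-Friesian arrays read 12.23, 13.04 and 12.95 and naive ones 13.00, 13.06 and 13.18, and the groups overlapped. That difference was -0.34 ± 0.21 (adjusted p = 0.389).

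HSPA5, also called BiP or GRP78, is the HSP70 of the endoplasmic reticulum and holds the sensors of the unfolded protein response inactive. Its probe set 2 read 5.81, 7.54 and 8.11 in infested Brahman arrays, against 10.30, 10.45 and 10.30 in naive Brahman arrays. The infested arrays were spread over more than 2 log2 units, all below the naive arrays. It fell by 3.19 ± 0.88, or 9.16-fold (adjusted p = 0.0281), and 0.167% of all probe sets had a larger size of difference in that comparison.

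That HSPA5 call was lost without naive Brahman 1, 2 or 3 (adjusted p = 0.0668, 0.0765 and 0.0788) and without infested Brahman 1, when the difference was -2.53, or 5.76-fold (adjusted p = 0.0728). It was -0.52 (adjusted p = 0.671) when the index was a covariate. In Holstein-Friesian skin this probe set read 7.43, 11.61 and 10.57 in infested animals and 10.52, 11.04 and 10.68 in naive animals. Only infested Holstein-Friesian 1, the array of lowest index in its group, lay below the naive arrays, and the highest value was also that of an infested animal. Over all 12 arrays, the 4 lowest HSPA5 values on this probe set were those of the 4 arrays with the lowest index, in the same order. The Holstein-Friesian difference was -0.88 ± 0.88 (adjusted p = 0.61), and 0.34 without the 2 arrays of lowest index (adjusted p = 0.457).

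HSPA5 probe set 1 read 9.67, 11.58 and 11.98 in infested Brahman arrays, against 11.91, 11.95 and 11.73 in naive Brahman arrays. Infested Brahman 1 was far below, and infested Brahman 3 above all naive arrays. The difference of -0.79 ± 0.45 did not pass (adjusted p = 0.241), and it was 0.55 with the index as a covariate (adjusted p = 0.393). In Holstein-Friesian skin HSPA5 by this probe set read 12.07, 12.52 and 12.15 in infested and 12.12, 12.02 and 12.09 in naive animals, a difference of 0.17 ± 0.45 (adjusted p = 0.871). HSPA5 probe set 3 averaged 3.84 over the 12 arrays and was not called in any comparison.

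**Figure D3:**
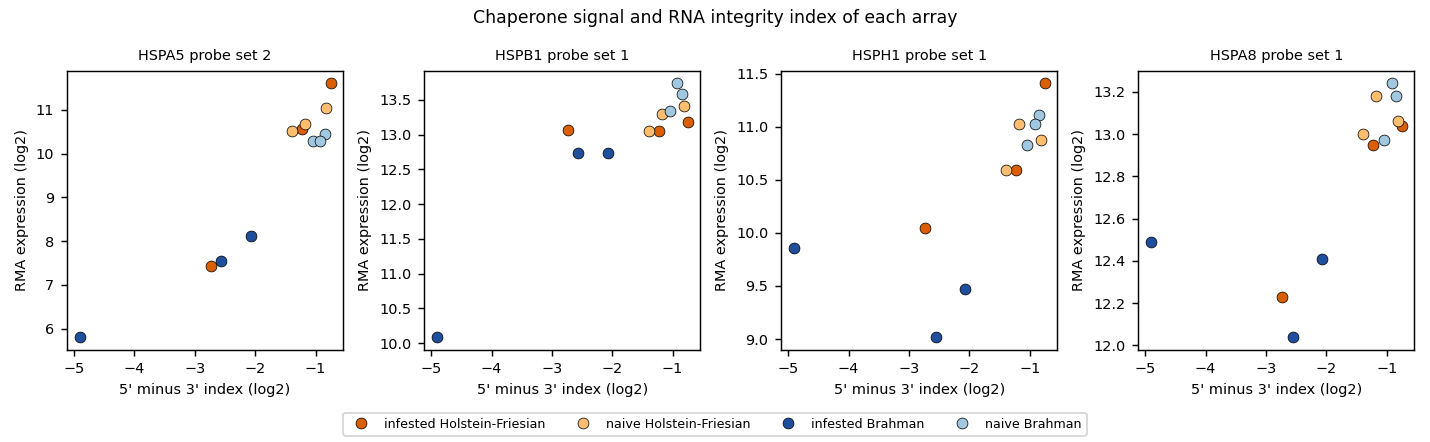
RMA expression (log2) of 1 probe set each of HSPA5, HSPB1, HSPH1 and HSPA8, plotted against the 5' minus 3' integrity index (log2) for each of the 12 arrays, coloured by group. HSPA5 was lowest on infested Brahman 1 (index -4.91), while HSPH1 was lowest on infested Brahman 2 (index -2.56).

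HSPH1 encodes HSP110, a large relative of HSP70 that works as its nucleotide exchange factor and in protein disaggregation. Its probe set 1 read 9.86, 9.02 and 9.47 in infested Brahman arrays, against 10.83, 11.11 and 11.03 in naive Brahman arrays. Every infested Brahman array lay about 1 log2 unit or more below the naive arrays. HSPH1 fell by 1.54 ± 0.31 on this probe set, or 2.91-fold (adjusted p = 0.00798), and passed whichever array was left out. Adding the index as a covariate gave -1.40 (adjusted p = 0.094).

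Infested Holstein-Friesian arrays read 10.05, 11.41 and 10.59 on this HSPH1 probe set, against 10.59, 10.88 and 11.03 in naive animals. The groups overlapped, and the difference was -0.15 ± 0.31 (adjusted p = 0.824). HSPH1 probe sets 2, 3 and 4 averaged between 4.13 and 5.60 over the 12 arrays, below the low-signal limit of 6.07, the 40 percent quantile of mean signal over all probe sets. HSPH1 probe set 2 read 5.29, 4.74 and 5.06 in infested Brahman arrays, against 5.95, 6.20 and 6.31 in naive Brahman arrays. It fell by 1.12 ± 0.28 (adjusted p = 0.0178), and was not called without naive Brahman 2 (adjusted p = 0.056), naive Brahman 3 (adjusted p = 0.0691) or infested Brahman 2 (adjusted p = 0.055). In Holstein-Friesian skin its difference of -0.63 ± 0.28 did not pass (adjusted p = 0.209).

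HSPH1 probe set 3 was the 1 chaperone probe set called in both breeds. It read 3.39, 4.02 and 3.72 in infested Holstein-Friesian arrays, against 4.60, 5.35 and 4.51 in naive ones, and 3.65, 3.70 and 3.58 in infested Brahman arrays, against 4.52, 4.45 and 4.81 in naive ones. It fell by 1.11 ± 0.23 in Holstein-Friesian skin (2.16-fold, adjusted p = 0.0249) and fell by 0.95 ± 0.23 in Brahman skin (1.93-fold, adjusted p = 0.0165). Both infested groups lay wholly below their naive group, on a probe set whose signal is among the lowest of the 16. The Holstein-Friesian call was lost without naive Holstein-Friesian 1 (-1.22, adjusted p = 0.0661), naive Holstein-Friesian 2 (-0.84, adjusted p = 0.0672) or infested Holstein-Friesian 3 (-1.11, adjusted p = 0.0746), and the Brahman call without naive Brahman 3 (-0.84, adjusted p = 0.0693). With the index as a covariate the HSPH1 difference was -1.06 in Holstein-Friesian skin (adjusted p = 0.0218) and -0.69 in Brahman skin (adjusted p = 0.23). HSPH1 probe set 4 was not called in any comparison and ranged from 3.72 to 4.51.

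DNAJB1, a J-domain protein of the HSP40 family, delivers unfolded clients to HSP70 and starts its ATP hydrolysis. Its 2 probe sets differed. Probe set 2 read 6.76, 9.05 and 7.54 in infested Brahman arrays, against 10.08, 9.90 and 8.86 in naive Brahman arrays. Infested Brahman 2 lay above naive Brahman 3, so the groups overlapped. DNAJB1 by this probe set fell by 1.83 ± 0.50, or 3.56-fold (adjusted p = 0.0272).

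Without infested Brahman 2 that DNAJB1 difference was -2.46, or 5.51-fold (adjusted p = 0.00458). It was not called without infested Brahman 1 (-1.32, adjusted p = 0.0643), infested Brahman 3 (-1.71, adjusted p = 0.0639), naive Brahman 1 (-1.60, adjusted p = 0.0873) or naive Brahman 2 (-1.69, adjusted p = 0.0874). The index as a covariate left -1.04 (adjusted p = 0.386). In Holstein-Friesian skin this probe set read 7.80, 8.16 and 7.68 in infested and 8.29, 8.14 and 8.81 in naive animals, a difference of -0.54 ± 0.50 (adjusted p = 0.578). DNAJB1 probe set 1 was not called in Brahman skin, with 9.67, 9.58 and 9.21 in infested and 9.48, 9.68 and 9.52 in naive arrays (-0.07 ± 0.21, adjusted p = 0.835, 95% interval -0.53 to 0.38). In Holstein-Friesian skin it read 9.48, 10.13 and 9.46 in infested and 8.98, 9.30 and 9.44 in naive animals, with no overlap and a difference of 0.45 ± 0.21 that did not pass (adjusted p = 0.234).

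HSPD1 encodes HSP60, the chaperonin of the mitochondrial matrix. It read 11.23, 10.56 and 11.08 in infested Brahman arrays, against 11.79, 11.73 and 11.80 in naive Brahman arrays. The naive arrays lay within 0.1 of each other, and all infested arrays were below them. HSPD1 fell by 0.82 ± 0.21, or 1.76-fold (adjusted p = 0.0221). The call was lost without naive Brahman 1 (adjusted p = 0.058), naive Brahman 2 (adjusted p = 0.0564), naive Brahman 3 (adjusted p = 0.0709) or infested Brahman 2 (-0.62, adjusted p = 0.0639), and with the index as a covariate (-0.74, adjusted p = 0.183). Infested Holstein-Friesian arrays read 10.83, 11.58 and 11.45 and naive ones 11.81, 11.80 and 11.89. The groups did not overlap either, but the difference of -0.55 ± 0.21 did not pass (adjusted p = 0.162).

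HSPB1, or HSP27, is a small heat shock protein that binds unfolding proteins without ATP and guards the actin cytoskeleton. Its probe set 1 read 10.09, 12.73 and 12.73 in infested Brahman arrays, against 13.34, 13.59 and 13.74 in naive Brahman arrays. Infested Brahman 1 lay far below the rest, and the other two were also below every naive Brahman array. HSPB1 by this probe set fell by 1.71 ± 0.55, or 3.27-fold (adjusted p = 0.0496). Without infested Brahman 1 it fell by 0.83, or 1.78-fold, with a smaller adjusted p of 0.00625. It was called without any 1 of the infested Brahman arrays, and not without any 1 of the other 9 arrays, with adjusted p from 0.0547 without infested Holstein-Friesian 1 to 0.138 without naive Brahman 3. Once the index was a covariate, it was -0.16 (adjusted p = 0.884).

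HSPB1 probe set 2 moved the other way. It read 7.63, 6.86 and 6.89 in infested Brahman arrays, against 6.65, 6.19 and 6.17 in naive Brahman arrays. It rose by 0.79 ± 0.21, or 1.73-fold (adjusted p = 0.0235), with no overlap between the groups. The call was lost without naive Brahman 2 (0.72, adjusted p = 0.0819) or naive Brahman 3 (0.71, adjusted p = 0.0889), and with the index as a covariate (0.36, adjusted p = 0.424). The 2 HSPB1 probe sets correlated by -0.93 over the 12 arrays, which include infested Brahman 1, the highest on 1 and the lowest on the other. In Holstein-Friesian skin HSPB1 probe set 1 read 13.07, 13.19 and 13.05 in infested and 13.05, 13.41 and 13.30 in naive animals (-0.15 ± 0.55, adjusted p = 0.909). Probe set 2 read 6.62, 6.69 and 6.50 in infested and 6.45, 6.40 and 6.45 in naive animals (0.17 ± 0.21, adjusted p = 0.694).

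No chaperone probe set was called by limma between naive Brahman and naive Holstein-Friesian skin, where 0.025% of all tested probe sets were (0.0125% higher and 0.0125% lower), and the median difference of the 16 was 0.01. The 1 probe set with an unadjusted p under 0.05 was DNAJB1 probe set 2, with 10.08, 9.90 and 8.86 in naive Brahman and 8.29, 8.14 and 8.81 in naive Holstein-Friesian animals. All naive Brahman arrays were higher, by 1.20 ± 0.50 on average (adjusted p = 0.942). The arrays of the naive breeds did not overlap for 2 probe sets higher in Brahman (both of DNAJB1) and 3 lower in Brahman (HSPD1 and 2 of HSPA5), where 14.5% of all probe sets had no overlap (7.25% higher and 7.21% lower).

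The intervals show what the comparison of naive breeds can bear. For HSPA8 the 95% interval of the Brahman minus Holstein-Friesian difference ran from -0.41 to 0.51 around 0.05. For HSPD1 it ran from -0.52 to 0.40 around -0.06, and for HSP90AB1 from -0.19 to 0.57 around 0.19. For HSPA5 probe set 2 it ran from -2.32 to 1.53 around -0.40, since the fit shares the wide spread of the infested arrays. The naive breeds also differed in age, which cannot be told apart from breed here.

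Among infested animals, which were of 1 age, no chaperone probe set was called between Brahman and Holstein-Friesian skin, where 0.167% of all tested probe sets were (0.0416% lower and 0.125% higher), and 5 of the 16 had an unadjusted p under 0.05. These were both HSPB1 probe sets, 2 of HSPA5 and HSPH1 probe set 1. HSPH1 was lower in every infested Brahman array than in any infested Holstein-Friesian array, with a difference of -1.23 ± 0.31 (adjusted p = 0.189), and HSPA5 probe set 2 had a difference of -2.72 ± 0.88 (adjusted p = 0.266) with overlap. The arrays did not overlap for 3 probe sets lower in infested Brahman skin (HSPA5 probe set 1, HSPB1 probe set 1 and HSPH1 probe set 1) and 1 higher (HSPB1 probe set 2), where 13.4% of all probe sets had no overlap (4.16% lower and 9.24% higher).

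The comparison of infested breeds turned on infested Holstein-Friesian 1. That array was lower than both others of its group in HSPA8, HSPD1, HSPH1 probe set 1 and HSPA5 probe set 2. Without it 3 chaperone probe sets were called, beside 5.14% of all probe sets (3.22% lower). The Brahman minus Holstein-Friesian differences were then -3.94 for HSPA5 probe set 2 (adjusted p = 0.00508), -1.55 for HSPH1 probe set 1 (adjusted p = 0.0152) and -0.69 for HSPA8 (adjusted p = 0.0422). Without the 2 arrays of lowest index, 4 were called, with differences of -3.27 for HSPA5 (adjusted p = 0.000795), -1.75 for HSPH1 (adjusted p = 0.00539), -0.78 for HSPA8 (adjusted p = 0.0187) and -0.70 for HSPD1 (adjusted p = 0.034), beside 9.16% of all probe sets. The index of the arrays left was then -2.56 and -2.07 in infested Brahman and -0.75 and -1.23 in infested Holstein-Friesian skin. In both settings the infested breeds had no overlap in index, so integrity and breed cannot be told apart there. With the index as a covariate none was called, and the HSPA5 difference was -0.80 (adjusted p = 0.739) and that of HSPH1 -1.13 (adjusted p = 0.377).

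The change with infestation was also tested for a difference between the breeds. No chaperone probe set was called by limma, where 0.00416% of all tested probe sets were, and 1 of the 16 had an unadjusted p under 0.05. That was HSPH1 probe set 1, where the Brahman minus Holstein-Friesian difference of the infestation effect was -1.39 ± 0.44 (adjusted p = 0.589). Without infested Holstein-Friesian 1 the difference of HSPA5 probe set 2 was called (-3.54, adjusted p = 0.047), beside 1.62% of all probe sets. Without both arrays of lowest index that of HSPA5 (-2.87, adjusted p = 0.00772) and that of HSPH1 (-1.91, adjusted p = 0.017) were called, beside 4.71% of all probe sets. In both settings the infested breeds had no overlap in index. With all arrays the larger number of Brahman calls was therefore not shown to be a difference between the breeds.

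Chaperone probe sets tended to vary together over the 12 arrays, which share the same group differences and the same spread of RNA integrity. The median Pearson correlation was 0.48 over the 108 pairs of probe sets of different genes, and ranged from -0.82 to 0.97, the highest being that of HSPA8 with HSPD1. Over the 12 pairs of probe sets of the same gene the median was 0.64, with a range from -0.93 to 0.86. The median over pairs of other probe sets was not measured, so these values are not shown to be particular to chaperones. For the likeness to other genes each member was read on its probe set 1 alone. For HSPA5 and DNAJB1 that is not the probe set that fell in Brahman skin. By Pearson correlation, the genes most like HSPA8 among all named genes were the ribosomal protein gene RPL4 (r = 0.988) and PPP1R2 (r = 0.979). HSPB1 was most like the elongation factor gene EEF1G and the transcription factor gene USF2 (both r = 0.988), HSPA5 like the glycolytic enzyme gene TPI1 (r = 0.981) and ILK (r = 0.967), and HSPD1 like LEO1 (r = 0.972) and USP47 (r = 0.969). HSP90AA1 was most like CALD1 (r = 0.969) and GATC (r = 0.966), HSPH1 like the splicing factor gene TRA2B (r = 0.963) and SGO2 (r = 0.940), HSP90AB1 like CSNK2B (r = 0.955) and IDH3G (r = 0.949), and DNAJB1 like VNN2 (r = 0.859) and MED28 (r = 0.856).

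The other genes of the chaperone network were taken from 7 lists, with 1 probe set per gene. In infested against naive Brahman skin 10.2% of all tested probe sets were called lower and 9.54% higher, and the list counts stand against these shares. Of the 14 measured relatives and co-chaperones of HSP90, 10 fell and none rose, with a median difference of -0.76, beside -0.02 over all named genes. Of the 22 measured genes of endoplasmic reticulum folding and the unfolded protein response, 7 fell and none rose, with a median of -0.62. Of 19 J-domain protein genes 4 fell and 1 rose (median -0.40), and of 3 heat shock factor genes 1 fell (-0.55). Of 17 relatives and co-chaperones of HSP70 2 fell and 1 rose (-0.17), of 13 chaperonin and prefoldin genes 1 fell (-0.30), and of 6 small heat shock protein genes 0 were called by limma (-0.18).

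Several of these Brahman counts moved with the arrays used. The count of HSP90 relatives and co-chaperones was 4 without naive Brahman 2 (beside 11.3% of all probe sets). That of the endoplasmic reticulum genes was 3 without naive Brahman 3 (9.23%). With the index as a covariate 2 genes of the HSP90 list, 2 of the endoplasmic reticulum list and 1 of the J-domain proteins were called, all lower, and none of the other 4 lists, beside 7.53% of all probe sets. Without the 2 arrays of lowest index 10 genes of the HSP90 list, 10 of the endoplasmic reticulum list, 7 J-domain protein genes, 5 chaperonin and prefoldin genes and 4 of the HSP70 list were lower. In that setting 1 gene each of the endoplasmic reticulum, J-domain and HSP70 lists was higher, and 26% of all probe sets were called.

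In infested against naive Holstein-Friesian skin, where 2.34% of all tested probe sets were called lower and 2.68% higher, 3 of 19 J-domain protein genes fell (median -0.17). Also, 1 gene each of the HSP90 list (median difference -0.30), the endoplasmic reticulum list (-0.26) and the heat shock factors (-0.59) fell, beside a median of -0.04 over all named genes. Of 17 relatives and co-chaperones of HSP70 1 rose (0.07), and no chaperonin, prefoldin or small heat shock protein gene was called by limma. The counts ran from 0 to 4 for the HSP90 list, with 4 without infested Brahman 1, and from 1 to 4 for the J-domain proteins when single arrays were left out. The share called over all probe sets then ran from 0.654% to 10.7%, the latter without infested Brahman 1. Without the 2 arrays of lowest index 17% of all probe sets were called, and so were 6 genes of the HSP90 list, 3 of the endoplasmic reticulum list, 2 heat shock factor genes and 1 chaperonin or prefoldin gene, all lower. On the HSP70 list and among the J-domain proteins 3 genes were then lower and 1 higher, and among the small heat shock proteins 1 was lower and 1 higher.

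**Figure D4:**
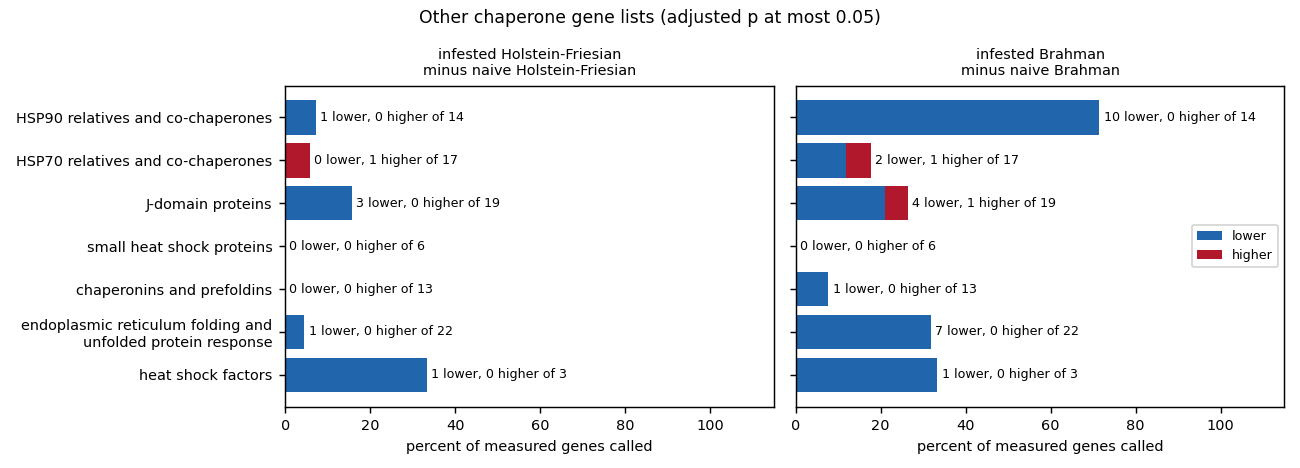
Percent of the measured genes of 7 other chaperone gene lists that were called lower (blue) or higher (red) at an adjusted p of at most 0.05, for infested minus naive Holstein-Friesian and infested minus naive Brahman animals. HSP90 relatives and co-chaperones had the highest share in Brahman skin, with 10 of 14 lower.

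Among the partners of HSP90, CHORDC1, a zinc-binding co-chaperone, showed the largest change in Brahman skin. It read 5.05, 4.48 and 4.61 in infested Brahman arrays, against 8.01, 8.06 and 8.10 in naive Brahman arrays. All infested Brahman arrays were about 3 log2 units below the naive arrays. CHORDC1 fell by 3.34 ± 0.49, or 10.1-fold (adjusted p = 0.00207), and fell by 2.70 with the index as a covariate (adjusted p = 0.0395). In Holstein-Friesian skin CHORDC1 read 4.69, 7.08 and 6.91 in infested and 7.27, 7.61 and 7.70 in naive animals. Its lowest values were those of infested Holstein-Friesian 1 and the infested Brahman arrays, which also had the lowest integrity index. TRAP1, the mitochondrial HSP90, fell by 0.74 ± 0.14 (adjusted p = 0.00538) and fell by 0.89 with the index (adjusted p = 0.021). The immunophilin FKBP4, which tunes steroid receptors bound to HSP90, fell by 1.54 ± 0.29 (adjusted p = 0.00549), and STIP1, which links HSP70 to HSP90, fell by 1.23 ± 0.26 (adjusted p = 0.00943). CHORDC1, TRAP1, FKBP4 and STIP1 passed whichever array was left out, but FKBP4 (-1.17, adjusted p = 0.104) and STIP1 (-0.55, adjusted p = 0.214) did not pass with the index.

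Of the partners of HSP70 in Brahman skin, HSPA9, the mitochondrial HSP70 that works beside HSPD1, fell by 0.75 ± 0.22 (adjusted p = 0.0342), and HSPBP1, a nucleotide exchange factor, fell by 0.66 ± 0.20 (adjusted p = 0.0402). BAG4, of the BAG family of HSP70 cofactors, rose by 0.93 ± 0.28 (adjusted p = 0.0405). Each was lost without some array, with the highest adjusted p at 0.121 for HSPA9 and 0.124 for BAG4 without naive Brahman 3, and at 0.108 for HSPBP1 without naive Brahman 2. With the index none of the 3 passed (HSPA9 -0.74, adjusted p = 0.194, HSPBP1 -0.66, adjusted p = 0.212, and BAG4 1.36, adjusted p = 0.0527). Among the endoplasmic reticulum genes, EIF2AK3 (PERK), a sensor of unfolded proteins, read 5.62, 5.49 and 5.53 in infested Brahman arrays, against 7.89, 7.93 and 8.08 in naive Brahman arrays. It fell by 2.42 ± 0.43, or 5.35-fold (adjusted p = 0.00461), and its difference was -1.66 with the index (adjusted p = 0.099). In Holstein-Friesian skin EIF2AK3 read 5.61, 7.87 and 7.33 in infested and 7.47, 7.81 and 7.89 in naive animals. Its lowest values, too, were those of infested Holstein-Friesian 1 and the infested Brahman arrays, the arrays of lowest index.

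CRELD2, a secretory pathway gene of the stress response, fell by 0.81 ± 0.12 in Brahman skin (adjusted p = 0.00226), and the stress transcription factor ATF4 fell by 1.10 ± 0.22 (adjusted p = 0.00855). HERPUD1, which serves the degradation of misfolded proteins, fell by 0.94 ± 0.21 (adjusted p = 0.011) and narrowly missed the threshold without naive Brahman 3 (-0.81, adjusted p = 0.0503). EIF2AK3, CRELD2 and ATF4 passed whichever array was left out. With the index, CRELD2 (-0.85, adjusted p = 0.0196) and HERPUD1 (-1.16, adjusted p = 0.0385) passed and ATF4 (-0.60, adjusted p = 0.189) did not. CCT6A, a subunit of the cytosolic chaperonin, fell by 1.38 ± 0.31 (adjusted p = 0.0118), and missed the threshold without naive Brahman 3 (-1.28, adjusted p = 0.0505) and with the index (-0.63, adjusted p = 0.274).

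Among the J-domain proteins, DNAJC12, a co-chaperone of HSP70 for aromatic amino acid hydroxylases in humans, was called in both breeds. It read 9.13, 9.24 and 8.81 in infested Holstein-Friesian arrays, against 11.52, 10.84 and 11.57 in naive ones. It read 8.76, 7.74 and 7.94 in infested Brahman arrays, against 11.53, 10.51 and 11.30 in naive ones. Both infested groups lay more than 1 log2 unit below every naive array. DNAJC12 fell by 2.25 ± 0.33 in Holstein-Friesian skin (4.76-fold, adjusted p = 0.00698) and fell by 2.97 ± 0.33 in Brahman skin (7.82-fold, adjusted p = 0.00058). It passed in both breeds whichever array was left out, and with the index as a covariate (-2.37, adjusted p = 0.00364, and -3.57, adjusted p = 0.00272).

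In Brahman skin DNAJA3, a mitochondrial J-domain protein, fell by 1.28 ± 0.26 (adjusted p = 0.00849) and passed whichever array was left out, but not with the index (-0.65, adjusted p = 0.191). DNAJA4 fell by 0.92 ± 0.22 (adjusted p = 0.0157) and DNAJC18 rose by 0.93 ± 0.22 (adjusted p = 0.0159). DNAJA4 missed the threshold without naive Brahman 2 (-0.68, adjusted p = 0.0518), and DNAJC18 without naive Brahman 1 (0.84, adjusted p = 0.055). With the index neither passed (DNAJA4 -0.90, adjusted p = 0.127, and DNAJC18 0.40, adjusted p = 0.352). In Holstein-Friesian skin DNAJB5 fell by 1.11 ± 0.20 (adjusted p = 0.0164) and DNAJC7 fell by 0.98 ± 0.21 (adjusted p = 0.0261). Without naive Holstein-Friesian 1 neither was called (DNAJB5 -1.13, adjusted p = 0.0661, and DNAJC7 -0.91, adjusted p = 0.103), and the second DNAJB5 probe set differed by -0.16. With the index both passed (DNAJB5 -1.12, adjusted p = 0.0146, and DNAJC7 -1.03, adjusted p = 0.0181).

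Outside the J-domain proteins, 4 listed genes were called in Holstein-Friesian skin. FKBP5, the glucocorticoid-induced immunophilin of HSP90, fell by 1.12 ± 0.25 (adjusted p = 0.0341), CRELD2 fell by 0.48 ± 0.12 (adjusted p = 0.048) and HSF1, the master factor of the heat shock response, fell by 0.59 ± 0.14 (adjusted p = 0.039). BAG5, a BAG family cofactor of HSP70, rose by 0.90 ± 0.21 (adjusted p = 0.0379), while its second probe set differed by 0.16. None of these calls held with every array left out in turn, with the highest adjusted p at 0.111 for FKBP5 and 0.136 for BAG5 without naive Holstein-Friesian 1, at 0.177 for CRELD2 without naive Holstein-Friesian 2 and at 0.115 for HSF1 without infested Holstein-Friesian 2. Of the 12 arrays left out in turn, 7 cost FKBP5 its call, 11 CRELD2, 9 HSF1 and 8 BAG5. With the index as a covariate all 4 passed in Holstein-Friesian skin (FKBP5 -1.13, adjusted p = 0.0309, CRELD2 -0.49, adjusted p = 0.0401, HSF1 -0.58, adjusted p = 0.036, and BAG5 0.84, adjusted p = 0.0315). HSF1 fell by 0.57 ± 0.14 in Brahman skin too (adjusted p = 0.0168), and missed the threshold without naive Brahman 3 (-0.51, adjusted p = 0.0698) and with the index (-0.52, adjusted p = 0.151). The second HSF1 probe set differed by -0.03 in Holstein-Friesian and 0.06 in Brahman skin.

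Genes with other functions marked further differences between the biopsies. Of 8 fibroblast markers, 6 rose in infested Brahman skin and 2 in infested Holstein-Friesian skin, and none fell, against 9.54% of all tested probe sets higher in Brahman and 2.68% in Holstein-Friesian skin. The mean level of that list, relative to the mean of the 6 naive arrays, lay between 0.79 and 1.07 on infested Brahman arrays and between -0.33 and -0.04 on naive Brahman arrays. On infested Holstein-Friesian arrays it lay between 0.78 and 0.88, against -0.03 to 0.35 on naive ones. Of 11 leukocyte markers, 1 rose in infested Brahman skin (levels of 0.42 to 1.09, against -0.14 to 0.60 in naive Brahman skin) and 3 in infested Holstein-Friesian skin (0.55 to 1.26, against -0.45 to 0.19).

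None of the 6 keratinocyte markers was called by limma in either breed. Their mean level was -1.85 on infested Brahman 1, where SFN, PKP1 and KRT15 were low, against -0.38 and -0.37 on the other infested Brahman arrays and -0.27 to 0.16 on naive Brahman arrays. On infested Holstein-Friesian arrays it lay between -0.39 and -0.32, against -0.06 to 0.22 on naive ones. Of 11 skeletal muscle markers, 4 fell and 1 rose in infested Brahman skin, against 10.2% and 9.54% of all tested probe sets. There the list level lay between -1.15 and -0.91, against -0.93, 1.11 and 1.48 on naive Brahman arrays. In infested Holstein-Friesian skin it lay between -1.12 and -0.80, against -0.97 to -0.16 on naive arrays, with none of the 11 called. RMA gives every probe set a value, so no marker stood at 0. The part of these cell types in the chaperone differences was not tested.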

How the data were processed

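Whole-skin RNA of 12 cattle was hybridised to 1 Affymetrix bovine array each. The deposited log2 expression values were made by the authors with RMA, per the submitters' processing notes. Which RMA version and chip definition were used is not given in the sources used here. Their log2 scale follows from their range. Of 24128 probe sets, 112 controls were left out. Gene symbols came from the platform annotation. Depth has no meaning for arrays, and their number limits the precision.

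One model of 4 group means was fitted over all 12 arrays in limma 3.58.1 (R 4.3.3, 8 residual and 3.03 prior degrees of freedom), with Benjamini-Hochberg adjustment over 24016 probe sets in each of 5 comparisons, two-sided. The code was tested on simulated data. The members and lists were chosen with earlier results of these data known. Named genes were all member probe sets, up to 4 called genes of smallest p per list and comparison (the probe set of highest mean per gene), and the 2 genes most correlated with each member. Same-numbered arrays of infested and naive Holstein-Friesian animals had correlated deviations from their group means (r from 0.113 to 0.249), which counts as paired by the rule used, although the labels name no shared origin. Those of Brahman animals did not (-0.189 to -0.053). Alternatives were cyclic loess, median centring, a low-signal filter, array weights, a trended robust prior, fewer arrays, a replicate block, the integrity index and leaving out arrays.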

Additional observations from a re-analysis of the deposited data

How the results depend on the processing

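In infested against naive Holstein-Friesian skin, 0 chaperone probe sets were called by limma after the low-signal filter, which removes the called probe set. Of all probe sets kept, 7.62% were called there. The chaperone count was also 0 in only the 6 arrays of the comparison (beside 5.18% of all probe sets). The count was 0 to 1 when single arrays were left out (0.654% to 10.7% of all probe sets), and 1 with the replicate block (4.36%). In infested against naive Brahman skin the count was 0 with the index as a covariate (7.53% of all probe sets). It was 3 to 10 with single arrays left out (9.23% to 23.2%) and 11 with the replicate block over all arrays (19.8%). With the block in only the 6 Brahman arrays, an alternative chosen after seeing the data, it was 1 (3.89%). For the breed difference in the infestation effect it was 1 with array weights, 2 without the 2 arrays of lowest index, and 0 to 1 with single arrays left out. Between infested breeds it was 3 with array weights (4.51% of all probe sets) and 4 without those 2 arrays (9.16%). With single arrays left out it was 0 to 3 (0.0458% to 5.14%). Between naive breeds it was 0 under every alternative run, single arrays left out included (0 to 0), beside 0.0208% to 1.67% of all probe sets. The replicate block changed no other count by over 1.5 times. The cause of these changes was not tested.

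Of 1676 alternative values of single probe sets and comparisons, 59 lost and 19 gained a call, 56 changed sign without any call, and 0 called values changed direction. In the Brahman comparison median centring moved the median over all probe sets by 0.09 and the split of calls to 3002 higher and 1983 lower, against 2292 and 2461. In the Holstein-Friesian comparison it gave 679 higher and 392 lower, against 644 and 562. Signal over background is unknown, since no detection calls were used here, and 4 of the 16 probe sets lay below the low-signal limit.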

Other observations

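Some chaperone genes outside the rule for named genes were chosen after their values were seen. CALR, the calreticulin of the endoplasmic reticulum, read 4.60, 8.51 and 9.21 in infested Brahman arrays, against 11.09, 10.96 and 11.02 in naive Brahman arrays. It fell by 3.58 ± 1.00, or 12-fold (adjusted p = 0.0296 by limma), and its differences were -2.16 without infested Brahman 1 and -4.47 without infested Brahman 3. It was not called without naive Brahman 1, 2 or 3 (highest adjusted p = 0.0844), and the difference was -0.20 with the index as a covariate (adjusted p = 0.729). HSP90B1, the HSP90 of the endoplasmic reticulum, fell by 1.39 ± 0.37 in Brahman skin (adjusted p = 0.0242), with -1.31 without naive Brahman 1 (adjusted p = 0.0709) and -0.49 with the index (adjusted p = 0.496). HSPA1A, the heat-inducible HSP70, was not called in either breed, with differences of 0.80 ± 0.28 in Holstein-Friesian skin (adjusted p = 0.128) and -0.16 ± 0.28 in Brahman skin (adjusted p = 0.722).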
